A study of Mus musculus with 9 samples.

Results

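Chemokines are small secreted proteins that direct the migration of leukocytes, and their receptors are membrane proteins on the cells that respond. The genes described here were all rows of the UMI table of the mouse epididymis whose symbol was Ccl, Cxcl, Ccr, Cxcr, Ackr or Xcr followed by a digit, together with Cx3cl1, Cx3cr1, Xcl1, Pf4 and Ppbp. The rule found 57 of 32195 genes, of which 36 encode ligands and 21 encode receptors. They held 293532 of the 262432814 UMIs in the cells used, 269319 in ligands and 24213 in receptors. At least 200 UMIs were found for 39 members, 27 ligands and 12 receptors, and the description centres on them.

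Most conventional chemokine receptors couple to inhibitory G proteins, whereas the atypical receptors (Ackr genes) bind chemokines without this coupling and remove or display them. CC ligands such as Ccl2, Ccl7, Ccl8 and Ccl12 attract monocytes through Ccr2 and related receptors. CXC ligands such as Cxcl1, Cxcl2 and Cxcl5 attract neutrophils through Cxcr2, and Cxcl9, Cxcl10 and Cxcl11 attract activated T cells through Cxcr3. Cxcl12 signals through Cxcr4 and is also bound by Ackr3. In the epididymis, mononuclear phagocytes and lymphocytes lie within and around an epithelium of principal, basal and clear or narrow cells that surrounds maturing sperm.

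The 9 single-cell RNA-seq libraries came from wild-type C57BL/6J mice that received no treatment. The caput, corpus and cauda were taken from 1 pool of mice aged 42 days (P42) and from 2 pools aged 56 days (P56), with the epididymides of 5 mice in a pool. The 3 libraries of a pool share their mice, so each segment had 3 libraries, 1 at P42 and 2 at P56. Age and pool cannot be told apart, because P42 was a single pool.

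The deposited libraries held 23114756 to 50655384 UMIs, and the median cell used had 3086 to 7644. Levels are given in CPM, the UMIs of a gene per 1000000 non-globin UMIs of all cells of a type in a library. The P42 cauda library stood apart: 2.23% of its cells were principal cells, against 42.3% and 44.9% in the P56 cauda, 29.2% were fibroblasts and 10.6% were C1q+ phagocytes, and Col1a1 reached 9681 CPM, against 23.5 to 1507 CPM in the others. Those 1507 CPM were in the P42 corpus. In clusters of cells made without the members, fibroblast clusters held 64.0% of the P42 cauda cells and 43.7% of the P42 corpus cells. The other libraries had 0.513% to 5.33% in such clusters. Results that rest on the P42 cauda library are therefore also given without it. The larger fibroblast cluster (2993 cells) had a median of 2040 UMIs, and the other (2486 cells) had 4760. Whether all cells in these clusters are fibroblasts was not tested. Mitochondrial UMIs made up 6.55% to 6.90% of the UMIs of caput libraries, 15.1% to 23.2% of corpus libraries and 10.5% to 17.5% of cauda libraries, and their part in the segment differences was not tested. The same barcode sequence occurred in more than 1 library for 143 sequences, which covered 381 of 44869 barcodes.

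Cells were placed in types by counts of detected marker genes, none of which is a chemokine or receptor. This gave 28189 typed cells of 41328: 17150 principal, 2320 basal, 2874 clear/narrow, 1541 C1q+ phagocytes, 149 C1q- phagocytes, 305 T/NK cells, 571 endothelial cells, 2109 fibroblasts, 650 myoid (smooth muscle) cells and 520 sperm. Another 2161 cells passed several gates and were left out, 10702 passed none, and the rest were ciliated cells or phagocytes with 1 detected C1q gene, which were not compared. All 16 markers of phagocytes, all 15 of endothelial cells, all 12 of fibroblasts and 19 of 20 of T/NK cells were highest in their own type. Of the 19 principal cell markers, many of which are secreted by 1 segment, 6 were highest in the principal cells, so the principal gate is the least separated.

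The members lie in clusters in the genome. On GRCm38, 14 members lie on chromosome 11, where Ccl2, Ccl7, Ccl11, Ccl12, Ccl8 and Ccl1 lie between positions 82035571 and 82305690 and Ccl5, Ccl9, Ccl6, Ccl3 and Ccl4 between 83525778 and 83664683. Chromosome 9 holds 13 members, all receptors, and chromosome 5 holds 12, among which Cxcl5, Ppbp, Pf4, Cxcl3, Cxcl15, Cxcl1 and Cxcl2 lie between 90759360 and 90905938. Some members share exonic bases with a gene on the opposite strand: Ccl27a with Il11ra1, Ackr4 with Acad11, Ccl25 with Elavl1, Cxcl16 with Zmynd15 and Cxcl10 with Art3. Ackr1 shares them on its own strand with Cadm3. The use of strand in the counting is not given in the sources used here, so reads of these pairs cannot be told apart, and Ccl21a and Ccl27a have near-identical gene copies that could split their reads.

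The promoters of 5 ligands that differed between segments are shown. Cxcl1, Cxcl2 and Cxcl10 were highest in the cauda and were chosen for their motif matches, Cxcl14 was also highest in the cauda, and Ccl17 was highest in the corpus. Each is the 250 bases before the RefSeq start on GRCm38.p6, printed 5′ to 3′ on the strand of the gene. Capitals mark matches on either strand to GGGNNNTTCC, the letters of a κB-like site, or TTTCNNTTTC, those of an interferon-stimulated response element.
Cxcl1 (chr5:90890995-90891244, + strand): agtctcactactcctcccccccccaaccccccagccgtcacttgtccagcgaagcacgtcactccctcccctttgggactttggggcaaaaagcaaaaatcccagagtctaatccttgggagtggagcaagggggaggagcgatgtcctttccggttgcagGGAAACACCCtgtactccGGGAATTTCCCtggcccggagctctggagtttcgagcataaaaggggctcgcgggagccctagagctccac
Cxcl2 (chr5:90903649-90903898, + strand): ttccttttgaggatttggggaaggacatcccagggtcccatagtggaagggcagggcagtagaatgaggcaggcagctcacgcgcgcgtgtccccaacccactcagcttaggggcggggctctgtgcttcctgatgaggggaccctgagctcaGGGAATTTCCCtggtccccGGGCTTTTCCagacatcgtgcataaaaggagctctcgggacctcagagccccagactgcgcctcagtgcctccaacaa
Cxcl10 (chr5:92348890-92349139, - strand): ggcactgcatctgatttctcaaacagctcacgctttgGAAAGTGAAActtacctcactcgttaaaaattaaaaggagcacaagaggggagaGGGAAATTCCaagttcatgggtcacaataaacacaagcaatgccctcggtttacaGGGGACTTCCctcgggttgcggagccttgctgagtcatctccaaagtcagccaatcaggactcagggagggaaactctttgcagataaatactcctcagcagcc
Cxcl14 (chr13:56296552-56296801, - strand): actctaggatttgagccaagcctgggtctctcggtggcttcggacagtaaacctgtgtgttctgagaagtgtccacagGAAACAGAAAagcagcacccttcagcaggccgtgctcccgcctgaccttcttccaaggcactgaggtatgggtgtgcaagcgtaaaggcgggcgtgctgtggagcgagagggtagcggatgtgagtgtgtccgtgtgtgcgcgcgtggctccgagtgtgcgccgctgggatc
Ccl17 (chr8:94810203-94810452, + strand): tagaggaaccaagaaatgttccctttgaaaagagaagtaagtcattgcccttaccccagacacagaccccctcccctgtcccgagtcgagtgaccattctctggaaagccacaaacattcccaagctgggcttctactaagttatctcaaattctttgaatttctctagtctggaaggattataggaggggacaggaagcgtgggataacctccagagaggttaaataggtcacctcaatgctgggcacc

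Cxcl1 and Cxcl2 each held matches to GGGNNNTTCC no farther than 97 bases before the start, with 1 overlapping pair on both strands, and Cxcl10 held 2 such matches and 1 to TTTCNNTTTC. Cxcl14 held 1 match to TTTCNNTTTC and none to GGGNNNTTCC, and Ccl17 held neither. Of the other members highest in the cauda in all cells, Ackr3, Ccl8, Ppbp and Xcr1 had a promoter sequence, and none of these held a match to GGGNNNTTCC. GGGNNNTTCC occurred in 4.65% of 32851 promoters and in 8 of the 43 members with a promoter sequence, and TTTCNNTTTC in 2.98% and in 3 members. The motifs were chosen after matches had been seen, and a match is only a description of the letters.

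The first comparison asked in which cell types the members were most abundant. Most members were called higher in the C1q+ phagocytes, while no member was called higher in principal cells with all libraries. Each type was tested against the mean of the others on UMIs summed per library and type, with the library as a block, and a member was called higher where the adjusted p was under 0.05 and the log2 fold change reached 1. Of 36 members tested, 20 were called higher in C1q+ phagocytes (background 7.75% of all genes), 14 in C1q- phagocytes (5.62%) and 10 in T/NK cells (3.26%). Fibroblasts had 9 (9.59%), basal cells 6 (5.71%) and endothelial cells 4 (8.33%). Clear/narrow cells (5.94%), myoid cells (4.76%) and sperm (12.6%) had 1 each. Principal cells had 0 by edgeR (4.16%) and 0 by DESeq2, with 2 higher at an unadjusted p under 0.05 by either tool. There 19 members were called lower, a count for which the share of all genes was not taken. Without the P42 pool Ccl17 was called higher in principal cells, with a log2 fold change of 1.53 (adjusted p = 0.00566) against 0.53 with all libraries. The median log2 fold change over the members was 2.90 in C1q+ phagocytes and -1.10 in principal cells, beside 0.04 and 0.11 over all genes. It was 0.71 in C1q- phagocytes and between -0.99 and -0.05 in the remaining types. The C1q- phagocytes reached 10 cells in only 3 libraries, the P42 corpus, the corpus of P56 replicate 1 and the P42 cauda. Their means and tests rest on the 62, 20 and 38 cells of these libraries. Without the P42 pool 1 such library is left, and of the C1q- calls only Ccl6, Ccl9 and Ccr2 held.

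**Figure D1:**
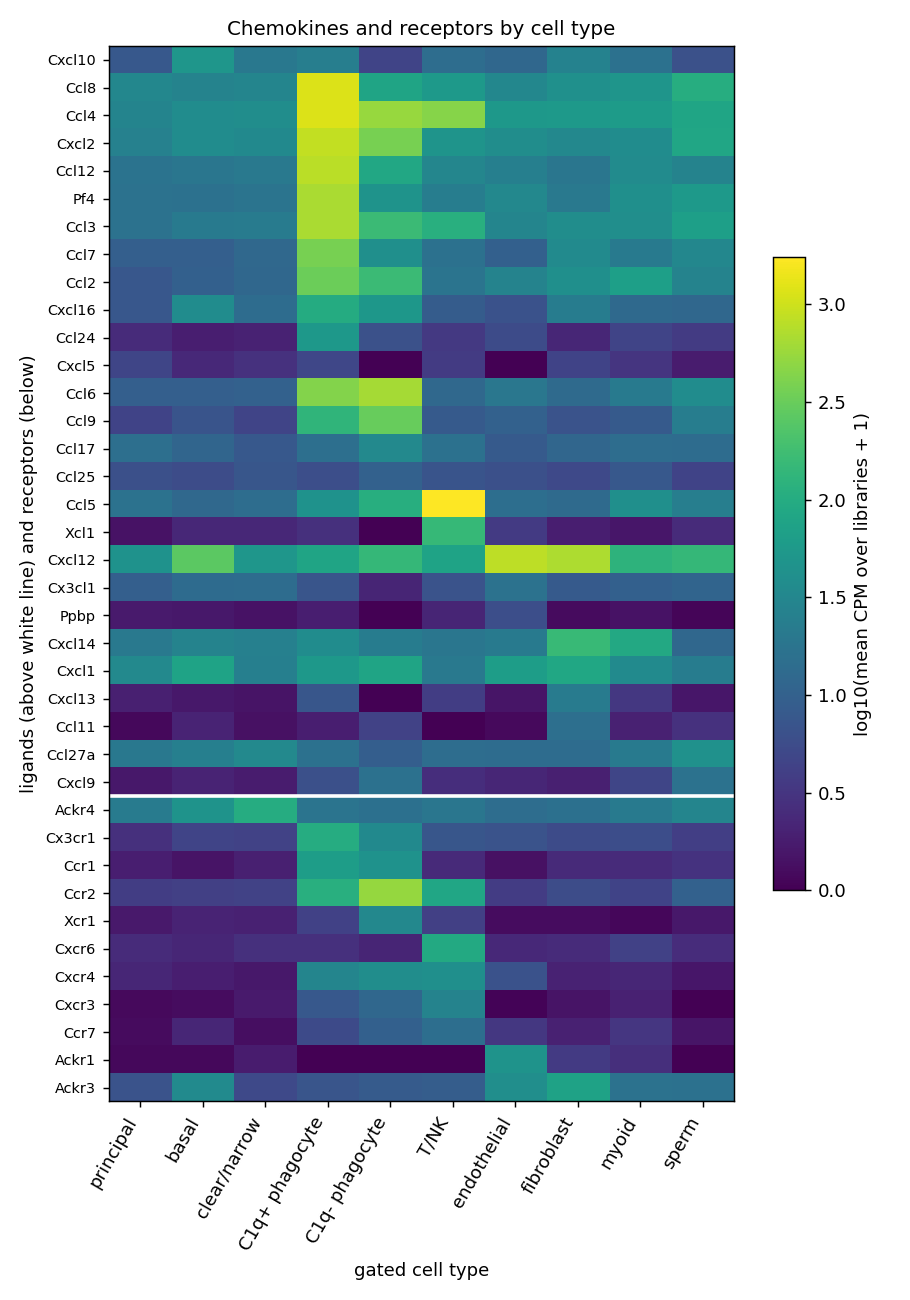
Mean level of 38 of the 39 members with at least 200 UMIs in each gated cell type, as log10(mean CPM over libraries + 1), with ligands above the white line and receptors below it. Ccl8 and Ccl4 stand above 1000 CPM in the C1q+ phagocyte column, and Ccl5 stands at 1742 CPM in T/NK cells.

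Among the ligands of C1q+ phagocytes, Ccl8, a monocyte attractant, had 1186 ± 1297 CPM (SD, n = 9 libraries), from 18.4 to 3886 CPM with a median of 1140. Ccl4, an attractant of monocytes and T cells, was steadier at 1170 ± 412 CPM (669 to 1860). The largest log2 fold changes against the other types were 5.35 ± 0.18 (SE) for Ccl8, 5.27 ± 0.14 for Ccl12 and 5.24 ± 0.14 for Pf4, a platelet chemokine also made by macrophages, with adjusted p values of 1.31e-42, 1.57e-48 and 6.34e-49. The order rested on the P42 pool: Ccl24 (4.88 with all libraries) came first without the P42 cauda library (6.03, against 5.63 for Ccl8), and Ccl24 (6.61) and Ccl7 (6.19) came first without the pool. Ccl12 reached 802 ± 319 CPM and Pf4 683 ± 686 CPM. Cxcl2, a neutrophil attractant, had 885 ± 881 CPM in these phagocytes, and Ccl3, a ligand of Ccr1, had 683 ± 274 CPM. For Ccl12, Ccl3, Ccl4, Ccl7, Ccl8, Cxcl2 and Pf4 the C1q+ phagocytes were the highest type in 9 of 9 libraries. Ccl24, an eosinophil attractant, ranged from 1.68 to 212 CPM.

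The receptors followed 2 patterns in the phagocytes. Ccr1, a receptor of Ccl3 and Ccl5, was higher in both phagocyte types, with 63.4 ± 50.4 CPM in C1q+ and 43.8 ± 23.3 CPM (n = 3) in C1q- cells, against at most 1.98 CPM in the mean of any other type. Cx3cr1, the receptor of Cx3cl1, had 99.5 ± 87.8 CPM in C1q+ and 33.1 ± 21.4 CPM in C1q- phagocytes. Ccr2, the receptor of Ccl2 that marks recruited monocytes, had its highest mean in C1q- phagocytes, at 672, 203 and 720 CPM in the P42 corpus, the corpus of P56 replicate 1 and the P42 cauda. In C1q+ phagocytes its mean was 109 ± 165 CPM. These 3 C1q- values exceeded the C1q+ value of the same library each time (304, 107 and 466 CPM). Xcr1, the receptor of Xcl1 on cross-presenting dendritic cells, had 50.1, 0 and 44.6 CPM in the C1q- cells of these libraries but was not tested between types. Ccl6 and Ccl9 also had their highest means in the C1q- cells, 633 ± 212 and 305 ± 33.0 CPM. These cells were nevertheless the highest type in 0 of the 3 libraries for Ccl6 and in 1 of 3 for Ccl9. The C1q- means hold no caput library, whereas the C1q+ means do.

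T/NK cells were marked by Ccl5, Xcl1 and Cxcr6. Ccl5, a T cell attractant released by cytotoxic lymphocytes, had 378 to 4225 CPM with a median of 1155, and its log2 fold change was 6.12 ± 0.14 (adjusted p = 8.9e-54). Xcl1, which attracts Xcr1+ dendritic cells, had 37.4 to 411 CPM in T/NK cells, and its mean was 57.3 times that of the next type, the endothelial cells. Its log2 fold change was 7.63 ± 0.28 (adjusted p = 4.31e-38). Cxcr6, the receptor of Cxcl16 on tissue lymphocytes, had 92.8 ± 71.0 CPM and a log2 fold change of 5.74 ± 0.27 (adjusted p = 3.81e-32). For each of these 3 genes the T/NK cells were the highest type in 9 of 9 libraries. Cxcr3, the receptor of Cxcl9 and Cxcl10, was less even, with 150 CPM in the P42 cauda and 0 in both P56 cauda libraries. Cxcr4, the receptor of Cxcl12, had 87.0 and 250 CPM in T/NK cells of the P42 corpus and cauda and 0 to 9.96 CPM in the other 7 libraries. Ccr7, which guides cells to lymph nodes, had its highest mean in T/NK cells (13.8 ± 21.3 CPM, 12 UMIs) but was at 0 in 5 of the 9 libraries. Ccr2, Ccl3 and Ccl4 were also called higher in T/NK cells. Without the P42 pool the calls of Ccl3 (1.18 with all libraries, 0.59 without) and Cxcr4 (3.47 and 1.47) in T/NK cells were lost.

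Stromal and vascular cells carried Cxcl12, Cxcl14 and the atypical receptors Ackr1 and Ackr3. Cxcl12, which retains Cxcr4+ cells in tissues, had 825 ± 270 CPM (n = 8) in endothelial cells and 701 ± 493 CPM (n = 9) in fibroblasts, a difference smaller than the spread between libraries. Their log2 fold changes were 3.01 ± 0.17 and 2.67 ± 0.16 (adjusted p = 4.48e-27 and 1.67e-25). Ackr1, which carries chemokines across venular endothelium, had 44.8 ± 60.4 CPM in endothelial cells, where the corpus libraries of P56 replicates 1 and 2 had 134 and 145 CPM and 2 other libraries had 0. Cx3cl1, the membrane-bound ligand of Cx3cr1, was called in endothelial cells with 15.6 ± 14.1 CPM, but not without the P42 pool (log2 fold change 1.71). Ackr3 was highest in fibroblasts (72.5 ± 41.7 CPM) and endothelial cells (38.7 ± 34.7 CPM), and it was also called in basal cells (34.7 ± 10.8 CPM). Cxcl14 had 153 ± 110 CPM in fibroblasts and 89.8 ± 74.5 CPM in myoid cells, where it was the only member called. Ccl11, an eosinophil attractant, and Cxcl13, a B cell attractant, were called in fibroblasts with 14.1 ± 16.5 and 21.0 ± 42.0 CPM. Most of the Cxcl13 level came from the P42 corpus (127 CPM) and the corpus of P56 replicate 1 (41.8 CPM).

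In the epithelium, Ackr4, a scavenger of Ccl19, Ccl21 and Ccl25, was highest in clear/narrow cells in 9 of 9 libraries, with 99.5 ± 51.4 CPM against 45.0 ± 22.2 CPM in basal and 21.5 CPM in principal cells. Its log2 fold change in clear/narrow cells was 2.42 ± 0.18 (adjusted p = 7.19e-20), and it was also called in basal cells (1.02 ± 0.21). Without the P42 cauda library the basal fold change was 0.96 (adjusted p = 0.000386), just under the fold needed for a call. Basal cells had the highest mean of Cxcl10, 49.3 ± 27.5 CPM, with a log2 fold change of 1.86 ± 0.21 (adjusted p = 5.04e-12). Cxcl12 (262 ± 167 CPM), Cxcl1 (75.4 ± 40.7 CPM) and Cxcl16 (36.7 ± 8.54 CPM), a membrane-bound ligand of Cxcr6, were called in basal cells as well. Ccl27a had 43.0 ± 29.6 CPM (n = 6) in sperm and 32.7 CPM in clear/narrow cells, and it was the only member called in sperm. For Ccl25, Ccl6, Ccr7, Cxcl12, Cxcl5 and Cxcl9, among others, another type came first when types were ranked by the share of cells with a UMI after each cell was thinned to 1000 UMIs. Cxcl9 stood highest in sperm by CPM because of 1 library, the P42 cauda, at 93.1 CPM, with 0 in the other 5. Ccl25, a ligand of Ccr9, was low in every type, with means of 3.48 to 9.22 CPM, and was called in none.

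Free RNA gives UMIs in cells that do not make a transcript, so each member's level in a type was set beside the markers of the leukocyte, endothelial or fibroblast type where the member was most abundant, with C1q+ phagocytes standing for both phagocyte types. In principal cells the 19 markers of C1q+ phagocytes, none of which was at 0 in all libraries, summed to 2.25% of their level in C1q+ phagocytes, with single markers between 1.02% and 5.11%. The level of 15 members in principal cells fell in the same range, among them Ccl8 (2.58%), Ccl7 (2.31%), Ccl12 (2.00%), Pf4 (2.31%), Ccl2 (2.03%) and Cxcl2 (2.88%). These levels were not read as expression by principal cells. The principal gate refused cells with more than a few detected markers of any other type, which limits these marker levels but not those of members. A member can therefore lie above the markers in principal cells in part because of the gate. In the other types, cells that passed a further gate were left out, which also limits the markers. Cxcl16 lay above all 19 markers at 6.68%, and Cxcl5 stood at 95.6%, its mean being 3.74 CPM in principal cells and 3.91 CPM (28 UMIs) in C1q+ phagocytes. Against the 12 markers of fibroblasts, which lay between 0.776% and 9.37%, Cxcl1 (38.8%) and Cxcl14 (12.8%) were higher in principal cells, whereas Ackr3 (7.91%) was not. Cx3cl1 (48.1%) and Cxcl12 (5.60%) exceeded the 15 endothelial markers, which reached 4.52%. Cxcl12 in fibroblasts was at 88.5% of its endothelial level, but it was not set beside the fibroblast markers. Ccl17, an attractant of Ccr4+ cells, was detected in every type: its mean was 33.0 ± 30.7 CPM (n = 3) in C1q- phagocytes, 15.2 CPM in T/NK cells, 14.2 in principal cells, 14.1 in C1q+ phagocytes, 13.1 in sperm and 6.89 in clear/narrow cells. Over all 149 C1q- phagocytes it had 25 UMIs. The C1q- mean is of corpus and P42 cauda libraries only, whereas the other means include the caput.

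**Figure D2:**
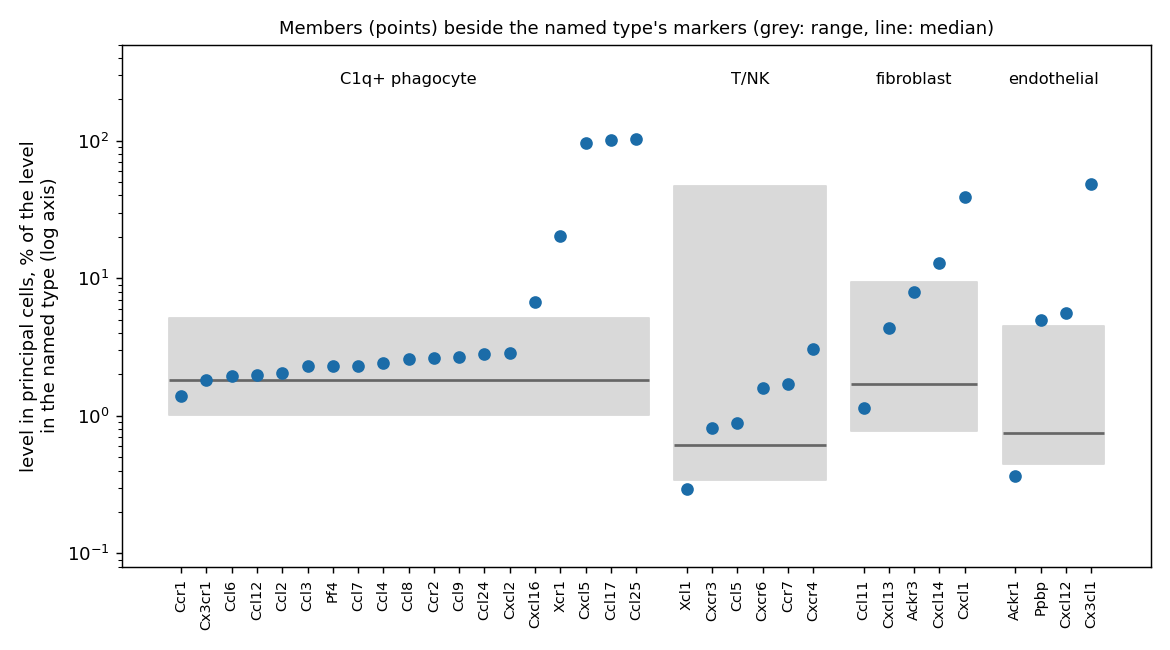
Level of members in principal cells as a percent of their level in the type named at the top, on a log axis (points), with the range (grey) and median (line) of that type's markers. Ccr1, Ccl8, Cxcl2 and their neighbours lie inside the grey range of 1.02% to 5.11%, and Cxcl16, Cxcl5, Ccl17, Cxcl1, Cxcl14 and Cx3cl1 lie above the range of their source.

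The second comparison asked how the members differ between caput, corpus and cauda. With all cells of a library summed, 15 of 45 members tested were called (background 25% of all genes), 11 of them highest in the cauda. The background counts calls with any segment highest, here and within types, and its split by segment was not taken. The pool was a block in this fit, and without the block 8 were called. Each adjusted p given for segments, here and within types, is of 1 F test over the 3 segments. It is not a test of the single pair of segments whose fold change stands beside it. The median over the members was 0.94 for corpus minus caput and 1.29 for cauda minus caput on the log2 scale, beside 0.01 and 0.03 over all genes. In such sums, more cells of a type and more RNA per cell cannot be told apart. Cxcl1 had 21.5, 5.01 and 5.22 CPM in the caput (P42 first, then P56 replicates 1 and 2), 69.2, 37.3 and 54.4 CPM in the corpus, and 151, 63.1 and 71.5 CPM in the cauda, so that the caput lay below all libraries of the other segments. The log2 fold change between cauda and caput was 3.58 ± 0.40 (adjusted p = 0.00247). Ccl17 had 1.02 to 1.83 CPM in the caput, 19.1 to 29.0 CPM in the corpus and 12.5 to 15.3 CPM in the cauda, and its 3 segments did not overlap. The corpus exceeded the caput by 4.26 ± 0.34 on the log2 scale (adjusted p = 0.000749). Ackr3, Ccl7, Ccl8, Cxcl10, Cxcl14, Cxcl16, Cxcl2, Cxcl5, Ppbp and Xcr1 were also called with the cauda highest. Ackr4 and Ccl17 were highest in the corpus, and Cx3cr1 and Cxcl15 in the caput. Of the 15 calls, 3 held without P56 replicate 1 and 6 without P56 replicate 2. Without the P42 cauda library, 22 members were called (share of all genes not taken), and these included all 15. The highest segment was then the corpus for Ccl8 (4.60 over the caput) and Xcr1 (1.52 over the caput), and it was as given above for the other 13.

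Within principal cells, 21 of 33 members tested were called between segments (background 38.8%), 13 of them highest in the cauda. Cxcl5, a neutrophil attractant, had 0 UMIs in the principal cells of all 3 caput libraries. It had 0.768, 2.39 and 5.25 CPM in the corpus and 2.68, 7.95 and 14.6 CPM in the cauda, and the groups overlapped only between corpus and cauda. Each P42 cauda value in principal cells, here and below, rests on 100 cells. Against a limit of 3 UMIs over the caput, the cauda was at least 133-fold and the corpus at least 40.0-fold higher (adjusted p = 2.66e-07). Ppbp, another Cxcr2 ligand whose gene lies beside Cxcl5 and Pf4, was also at 0 in the caput and at least 33.4-fold higher in the cauda, with 0, 1.03 and 4.63 CPM there. Cxcl1 was higher in the cauda than in the caput by 4.04 ± 0.42 on the log2 scale (adjusted p = 1.15e-05), with 2.10 to 7.83 CPM in the caput, 29.0 to 52.7 CPM in the corpus and 45.5 to 63.8 CPM in the cauda. Only corpus and cauda overlapped. Cxcl10, induced by interferons, had 1.24 to 3.85, 5.12 to 6.34 and 8.03 to 15.3 CPM from caput to cauda, without overlap, and a log2 fold change of 3.01 ± 0.31 (adjusted p = 8.00e-06).

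Ccl17, Ackr4 and Cxcl15 were not highest in the cauda of principal cells. Ccl17 rose between caput and corpus by 4.59 ± 0.28 on the log2 scale (adjusted p = 7.24e-08), from 0.861 to 1.65 CPM to 25.7 to 30.7 CPM, and had 8.03 to 18.6 CPM in the cauda. Ackr4 had 10.5 to 13.1 CPM in the caput, 30.8 to 45.7 CPM in the corpus, and in the cauda 29.5 CPM at P42 but 7.89 and 5.04 CPM at P56. The corpus exceeded the cauda by 2.10 ± 0.26 on the log2 scale (adjusted p = 9.09e-06). Cxcl14 was lowest in the corpus, with 2.41 to 9.80 CPM against 21.0 to 34.8 CPM in the cauda, a difference of 2.44 ± 0.31 (adjusted p = 6.67e-05). In the caput it had 41.1 CPM at P42 and 13.9 and 14.9 CPM at P56. Cx3cl1, Cxcl16 and Ackr3 were highest in the cauda by 1.42 ± 0.26, 1.20 ± 0.23 and 1.32 ± 0.22 over the corpus. Of these, Ackr3 lay within the range of the fibroblast markers. The summed fibroblast markers in principal cells averaged 256, 577 and 1923 CPM from caput to cauda, with 5003 CPM in the P42 cauda. The part of free RNA in the Ackr3 call was not tested. Cxcl15, a neutrophil attractant known from lung, was highest in the caput (1.24 to 1.98 CPM) by 3.22 ± 0.84 over the cauda, although the P42 cauda library had 2.68 CPM from 100 cells.

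A further 10 calls in principal cells concerned members that were most abundant in phagocytes or T/NK cells. They were Ccl2, Ccl6, Ccl7, Ccl8, Ccl9, Ccr2, Cx3cr1, Cxcl2, Cxcr6 and Xcl1, and their levels in principal cells, relative to the source type, lay below at least 1 of its markers. Cxcl2 was near the top of the phagocyte range, with 1 of 19 markers higher, and Cxcr6 had a log2 fold change of 1.44 with all libraries and of 1.46 without the P42 cauda library, where its adjusted p of 0.0554 missed the threshold. The summed C1q+ phagocyte markers in principal cells averaged 242, 340 and 431 CPM from caput to cauda. This rise was in the P42 libraries, with 278, 634 and 1020 CPM. The P56 libraries had 192 and 255 CPM in the caput, 190 and 195 CPM in the corpus, and 93.4 and 178 CPM in the cauda. Ccl8 was highest in the corpus in C1q+ phagocytes and in the cauda in principal cells, where without the P42 cauda library Ccl8 (3.31 over the caput) and Ccl7 (2.25 over the caput) were highest in the corpus too. Over the 8 types tested, 72 of 157 pairs of a member and a type were called, with 47 called without the pool block and 41 without P56 replicate 1. Of the 72, 25 lay above all markers of the source type and 29 lay within the range of its markers or below it. The other 18 were in the source type itself or were of Ackr4, Cxcl10 and Cxcl15, which have no such source type. The upper end of a range is set by 1 marker. For T/NK markers in principal cells this was Skap1 at 46.9%, with the next marker at 2.41%. In C1q+ phagocytes it was Cd4 at 88.9%, so that Cxcr4 at 71.4% counted as within the range. The part of free RNA in the 29 was not tested. Principal cells were not a source type here, so free RNA from them was not covered for the 25 either.

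**Figure D3:**
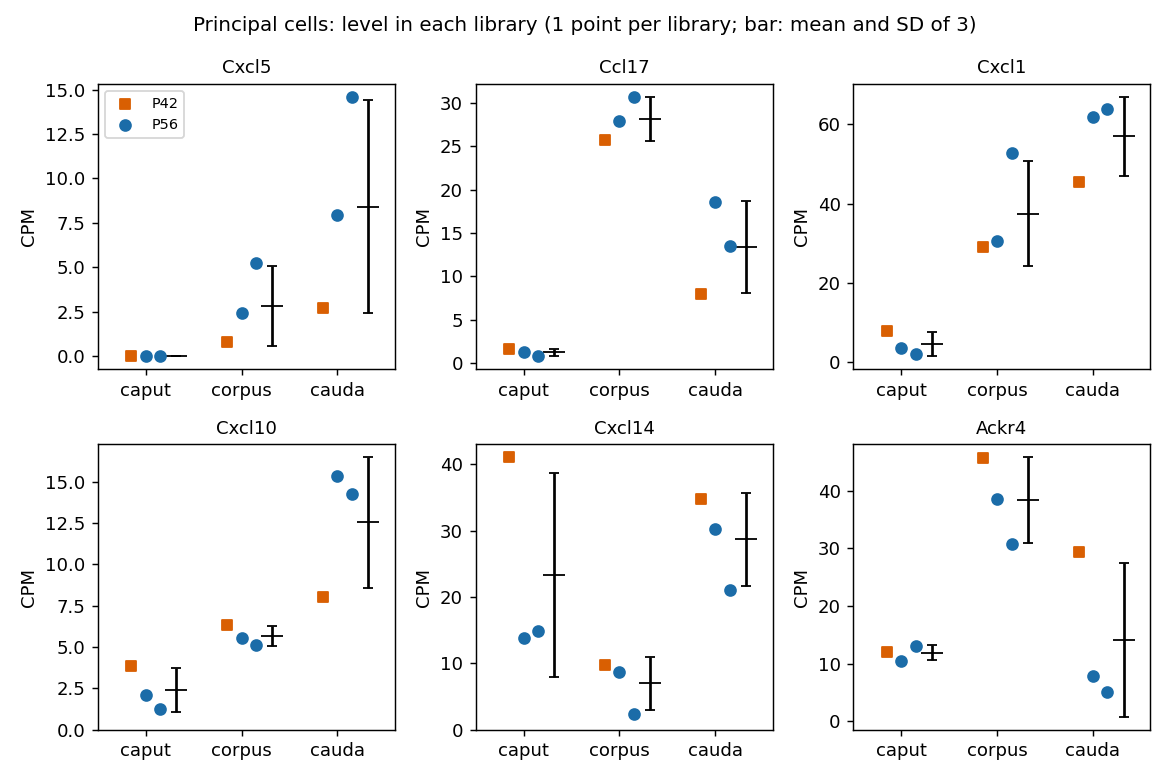
Level of 6 members in principal cells, in CPM, in each of the 9 libraries by segment (orange squares P42, blue circles P56), with the mean and SD of the 3 libraries of a segment beside them. Cxcl5, Cxcl1 and Cxcl10 were lowest in the caput, Ccl17 was highest in the corpus (25.7 to 30.7 CPM), and Ackr4 in the cauda was higher at P42 (29.5 CPM, from 100 cells) than in both P56 libraries.

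Cxcl1, Cxcl2, Cxcl14, Ccl7, Ccl8, Ccl17 and Ackr4 were called between segments in basal and in clear/narrow cells as well as in principal cells. Of these, Ccl7 and Ccl8 lay within the range of the phagocyte markers in all 3 types, in basal cells with 16 and 17 of the 19 markers higher. Ccl17 had 101%, 73.3% and 49.0% of its C1q+ phagocyte level in principal, basal and clear/narrow cells. Principal cells were not a source type in that comparison, so the part of their RNA in the calls of basal and clear/narrow cells was not tested. In basal cells 10 of 21 members were called (background 16.6%), and Cxcl10 had 17.2 to 33.4 CPM in the caput, 41.6 to 60.3 CPM in the corpus and 48.6 to 97.2 CPM in the cauda. Its log2 fold change was 2.11 ± 0.34 (adjusted p = 0.00118). Cxcl1 and Cxcl14 in basal cells were highest in the cauda by 2.23 ± 0.42 over the caput and by 3.45 ± 0.51 over the corpus. In clear/narrow cells 11 of 23 were called (background 15.1%), among them Cxcl1 (2.48 ± 0.28, cauda over caput, adjusted p = 9.09e-05) and Cxcl14 (3.20 ± 0.40, cauda over corpus). Ackr4 was highest in the caput in both types: in clear/narrow cells it had 138 to 155 CPM in the caput and, in the cauda, 160 CPM at P42 but 39.2 and 41.8 CPM at P56. Ackr4 thus peaked in the corpus in principal cells and in the caput in clear/narrow cells, but the difference between the types was not tested.

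In C1q+ phagocytes, 11 of 29 members were called between segments (background 11.5%). Of these, 10 had their lowest fitted level in the caput and 1, Cx3cr1, was highest there, a split that was not taken over all genes. Ccl8 had 45.3, 18.4 and 25.4 CPM in the caput, 1995, 1972 and 1140 CPM in the corpus and 3886, 1334 and 261 CPM in the cauda, each in the order P42, P56 replicate 1 and P56 replicate 2. Every value outside the caput exceeded every value in it, and the log2 fold change between corpus and caput was 5.83 ± 0.59 (adjusted p = 0.00011). Ccl7 had 46.4 to 99.1 CPM in the caput and 193 to 907 CPM elsewhere, with a difference of 2.90 ± 0.33 between cauda and caput (adjusted p = 0.000223). Ccl24 was low in the caput, with 1.68 to 2.99 CPM in the caput and 5.16 to 212 CPM outside it (4.76 ± 0.91 between corpus and caput, adjusted p = 0.00802). Without the P42 cauda library the corpus still exceeded the caput by 5.69 for Ccl8, 2.67 for Ccl7 and 4.56 for Ccl24. In that fit 16 members were called, and the share of all genes called was not taken. Ccl2, a ligand of Ccr2, differed by 1.88 ± 0.40 between corpus and caput, but the caput (77.8 to 159 CPM) overlapped with the cauda (114 to 929 CPM).

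Cx3cr1 ran the other way in these phagocytes, with 278, 144 and 89.0 CPM in the caput, 179, 31.97 and 35.04 CPM in the corpus and 98.7, 20.7 and 18.9 CPM in the cauda. The caput exceeded the cauda by 2.00 ± 0.32 on the log2 scale (adjusted p = 0.0029), in 3 of 3 pools. Ccl6 and Ccl9, which bind Ccr1, were higher in the corpus by 3.42 ± 0.74 and 3.30 ± 0.68, but their cauda levels spread from 41.3 to 1467 CPM and from 21.5 to 457 CPM, highest at P42. Cxcl1, Cxcl10, Cxcl2 and Cxcr4 were the others called. Pf4 had 161 to 318 CPM in the caput, 469 to 1206 CPM in the corpus and 119 to 2247 CPM in the cauda. It was not called with all libraries, but it was without the P42 cauda library (1.72 between corpus and caput) and without the P42 pool (1.61). Ccr2, whose highest segment was the corpus, was likewise called in these fits and not with all libraries. Ccl3, Ccl4 and Ccl12 were not called, and the differences between their highest and lowest segments were 0.22, 0.09 and 0.94 on the log2 scale.

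**Figure D4:**
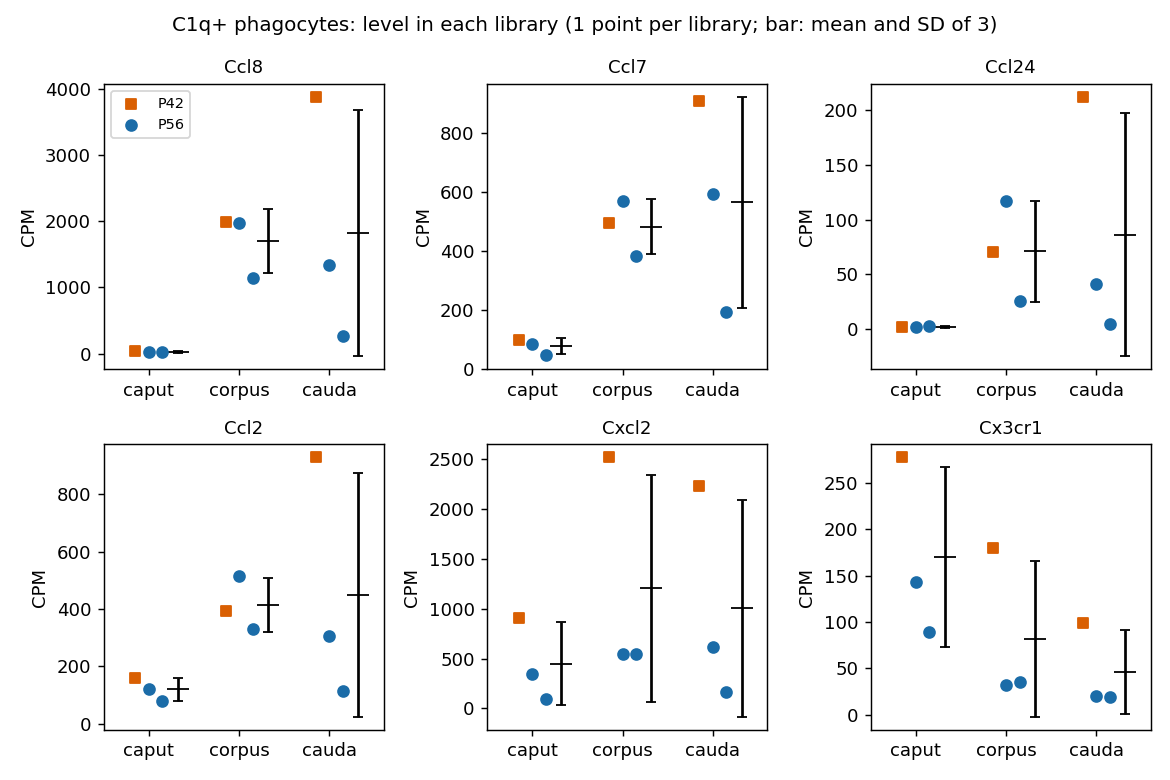
Level of 6 members in C1q+ phagocytes, in CPM, in each of the 9 libraries by segment (orange squares P42, blue circles P56), with the mean and SD of 3 libraries. Ccl8, Ccl7 and Ccl24 sat lowest in the 3 caput libraries, and Cx3cr1 sat highest there within each pool.

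Stromal types added calls for Ccl2, Ccl7 and Cxcl12. In fibroblasts 8 of 13 members were called (background 9.49%): Ccl2 had 0 to 6.01 CPM in the caput, 60.5 to 72.7 CPM in the corpus and 30.7 to 92.2 CPM in the cauda (3.97 ± 0.58 between corpus and caput, adjusted p = 0.000396). Ccl7 in fibroblasts had 0, 0 and 5.85 CPM in the caput and 60.2 to 98.8 CPM in the cauda. Its level there was 9.27% of that in C1q+ phagocytes, above all 19 phagocyte markers. Cxcl12 in fibroblasts was highest in the cauda by 1.49 ± 0.27 over the caput. Cxcl14, in contrast, was lowest in the corpus of fibroblasts, as in principal and basal cells. In myoid cells 8 of 18 were called (background 12.1%), in endothelial cells 2 of 13 (Ccl4 and Ccl8; background 7.32%) and in T/NK cells 1 of 7 (Cxcl12; background 16%). The Cxcl12 call in T/NK cells went along with fibroblast markers, which summed to 326 CPM in caput and 4949 CPM in cauda T/NK cells on average. The part of such RNA in it was not tested. C1q- phagocytes and sperm had too few libraries for this test. The endothelial call of Ccl8 rested on 31 UMIs, with 0 to 1.88 CPM in the caput, 8.42 to 45.4 CPM in the corpus and 162 CPM at P42 and 4.95 CPM at P56 in the cauda.

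The third comparison was between ages within each segment, P56 against P42. Summed over all cells, chemokines and receptors were mostly lower at P56, and the number called grew from caput to cauda. In the caput 6 of 51 members were called lower (background 2.52%) and 0 higher (background 0.875%) by edgeR, with 2 higher at an unadjusted p under 0.05 and 0 called higher by DESeq2. In the corpus 22 were lower (7.83%) and 2 higher (2.8%), and in the cauda 34 were lower (19.5%) and 4 higher (12.8%). The median log2 fold change over the members was -0.50, -1.37 and -2.59 in caput, corpus and cauda, beside 0.01, 0.05 and -0.06 over all genes. Each of these contrasts sets 1 P42 library against 2 P56 libraries and assumes that the P42 library varies as the P56 libraries do. An additive model of segment and age, which gives 1 contrast, called 30 of 51 members with all libraries and 0 of 51 when either P56 pool was left out (22 and 30 at an unadjusted p under 0.05, edgeR). The share of all genes called was not taken for the additive model. Fewer cells of a type and less RNA per cell cannot be told apart in these sums over all cells, and the gated type shares moved with age: C1q+ phagocytes made up 4.64%, 6.37% and 10.6% of cells at P42 (caput, corpus, cauda) and 1.28% to 3.73% at P56, and fibroblasts 3.45%, 9.44% and 29.2% at P42 and 0.472% to 1.87% at P56. Fibroblast clusters held 5.33%, 43.7% and 64.0% of cells at P42 and 0.513% to 3.81% at P56.

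Cxcl2 was called lower at P56 in all 3 segments, by 2.33 ± 0.19, 2.37 ± 0.19 and 3.16 ± 0.19 on the log2 scale (adjusted p = 0.00371, 0.00111 and 3.36e-05). It had 83.7 CPM at P42 against 10.4 and 15.6 CPM at P56 in the caput, 270 against 31.0 and 35.3 CPM in the corpus, and 561 against 36.6 and 37.9 CPM in the cauda. Cxcl12 and Ackr3 were likewise called lower in every segment, Cxcl12 by 1.13 ± 0.24 in the caput and 2.92 ± 0.24 in the cauda. A few members were higher at P56. Cxcl5 was higher in the corpus by 2.86 ± 0.67 (0.735 against 2.13 and 4.63 CPM) and in the cauda by 5.80 ± 0.79 (0.266 against 6.57 and 11.4 CPM). Ccl17 was higher in the corpus by 1.18 ± 0.21, and Cx3cl1, Ccl27a and Ppbp were higher in the cauda by 2.499 ± 0.289, 1.43 ± 0.17 and 3.57 ± 1.19. The P42 cauda held few principal cells, and the part of that in the cauda differences was not tested.

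Without the P42 cauda library the caput and corpus gave 29 calls of 102, and these were 29 of the 30 calls made there with it (Xcr1 in the corpus had a log2 fold change of -1.34 without it and -1.31 with it, and its adjusted p of 0.0525 missed the threshold). Within cell types, the mean of the 3 within-segment differences called 47 of 207 pairs. The 3 P42 libraries are 1 pool of mice but entered this fit, which has no block, as separate libraries, so its p-values do not allow for the mice they share. In an additive model of segment and age, 46 of 223 pairs were called with all libraries and 11 of 189 without the P42 cauda library. The share of all genes called was not taken for the additive model. The 47 calls were 12 of 35 members in C1q+ phagocytes (background 15.6%), 8 of 18 in T/NK cells (10.9%), 7 of 22 in myoid cells (10.7%), 6 of 40 in principal cells (2.93%), 5 of 18 in endothelial cells (8.12%), 4 of 24 in fibroblasts (6.25%), 3 of 26 in clear/narrow cells (5.35%) and 2 of 24 in basal cells (2.9%). All but Ackr1 in endothelial cells and Cxcl1 in clear/narrow cells were lower at P56. The background shares within types count calls in either direction, and their split was not taken. Of the 47 pairs, 22 lay within the range of the markers of the source type or below it, among them 5 of the 6 in principal cells, both in basal cells and 2 of the 3 in clear/narrow cells. As above, 1 marker can set the upper end of a range. The part of free RNA in the 22 was not tested. The summed markers of C1q+ phagocytes, T/NK cells and fibroblasts were also lower at P56 in their own type. In C1q+ phagocytes they had 15212, 27585 and 34347 CPM at P42 (caput, corpus, cauda) and 4703 to 14990 CPM at P56. T/NK cells had 1873, 4787 and 6415 CPM against 840 to 2436 CPM, and fibroblasts 32914, 49162 and 79050 CPM against 11390 to 26386.5 CPM. The part of such a fall in the age calls was not tested.

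The pairs that remained without the P42 cauda library included Cxcl2 in principal cells, Ccr2, Ccr7, Cx3cr1 and Cxcl2 in C1q+ phagocytes, Cxcl1 in fibroblasts, and Ccl2, Cxcl1, Cxcl12 and Cxcl14 in myoid cells. Ccr2 in C1q+ phagocytes was lower at P56 by 2.63 ± 0.26 on the log2 scale (adjusted p = 8.93e-09). In the additive model it was lower by 2.73 with all libraries and by 1.40 without the P42 cauda library (adjusted p = 0.0217), and it was not called when either P56 pool was left out. Its level was 24.3, 304 and 466 CPM in caput, corpus and cauda at P42, against 4.59 to 107 CPM at P56. Cx3cr1 fell by 1.66 ± 0.21 (adjusted p = 3.93e-07), and in each segment the P42 library was above both P56 libraries. Cxcl2 in C1q+ phagocytes had 903, 2518 and 2232 CPM at P42 and 97.3 to 613 CPM at P56. In principal cells Cxcl2 lay within the range of the phagocyte markers, as given above, and the median of all genes there was 0.32.

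**Figure D5:**
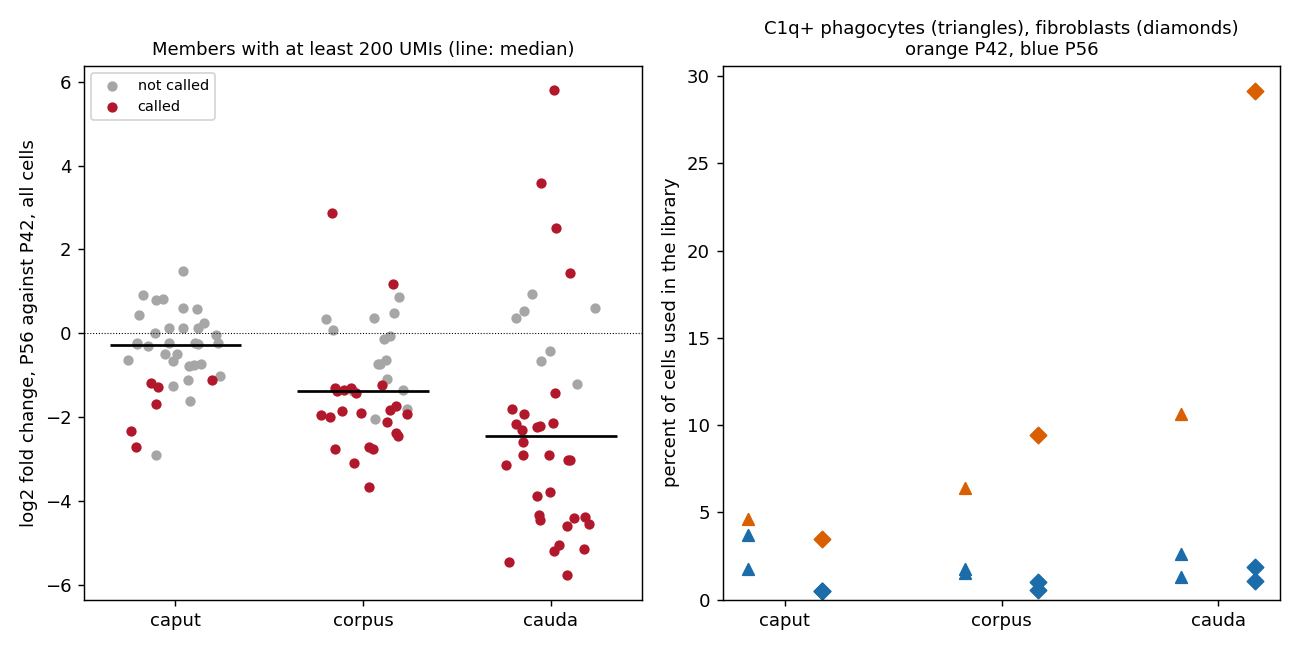
Left, log2 fold change of P56 against P42 in all cells for 38 of the 39 members with at least 200 UMIs in each segment (red called, grey not called, line median); right, C1q+ phagocytes and fibroblasts as a percent of the cells of each library. Most points in the cauda lie below 0, and the P42 cauda library holds 29.2% fibroblasts and 10.6% C1q+ phagocytes.

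The 18 members under 200 UMIs ranged from 5 UMIs (Ccr3) to 175 (Cxcl15). In falling order they were Cxcl15, Ccl28, Ccl22, Ccr10, Ccl19, Ccr9, Cxcr2, Ccl1, Ccr8, Cxcl11, Ccr6, Ackr2, Cxcr5, Ccr4, Cxcl3, Cxcl17, Ccl21a and Ccr3. Of these, Cxcl15 was called between segments, as described above. Ccl1, Ccl19, Ccl22, Ccr8, Ccr9 and Cxcr2 were called lower at P56 in the cauda by 4.10, 2.35, 3.52, 4.34, 3.20 and 4.41 on the log2 scale. Cxcr2, the receptor of Cxcl1, Cxcl2 and Cxcl5, had 57 UMIs in 35 cells, and 31 of the 41328 cells had 3 or more detected neutrophil markers.

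Of a list of genes for signalling, regulation and shedding of chemokines, 36 were in the table and 32 were tested between types. Lyn, Rac2, Dock2 and Was were among the 15 called higher in C1q+ phagocytes (background 7.75%), and 13 and 9 were called in C1q- phagocytes (5.62%) and T/NK cells (3.26%). Sdc4, a heparan sulfate proteoglycan that binds chemokines, was called in basal and clear/narrow cells. Between segments in all cells 10 of 36 were called, Ccrl2 among them, a share near the background of 25%, and 7 of the 10 were highest in the cauda. At P56, 2, 17 and 22 of the 36 were called lower from caput to cauda (background 2.52%, 7.83% and 19.5%), and 1, 0 and 2 were called higher (0.875%, 2.8% and 12.8%).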

How the data were processed

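The authors deposited 1 table of raw UMI counts per gene and cell, in which the column names give the library. Their methods and processing notes name a Singleron microfluidic chip, STAR 2.7.3a and UMI-tools (version not given in the sources used here) on GRCm38.p6, with no doublet step stated. Gene coordinates are from GENCODE and promoters from RefSeq tables of this build.

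Cells with 300 to 4000 genes, at most 20000 UMIs and under 50% mitochondrial UMIs were kept, and cells with at least 20% globin UMIs were left out. Types were gated by the number of detected markers, at thresholds set after the marker distributions, and not the members' values, had been seen. No doublet caller was run, and cells that passed several gates were left out. Counts were summed per library and type (at least 10 cells) and tested with edgeR 4.0.16 in R 4.3.3 (quasi-likelihood, Benjamini-Hochberg adjustment over all genes tested), with DESeq2 1.42.0 as an alternative. Segments were compared by 1 F test over the 3 segments with the pool as a block. Types were compared with the library as a block, and ages by a segment and age model without a block. The 3 segments of a pool came from the same mice, and all 9 same-pool pairs of libraries deviated together (r from 0.147 to 0.735 across genes). Among the 18 pairs from different pools the median r was -0.289, but r reached 0.526. Libraries of a pool also share their age, so these values do not single out the shared mice. A call needed a log2 fold change of 1 or more and an adjusted p under 0.05. The segment, age and cell type fits were tested on simulated counts, which held no effect of pool or library. The other steps were not tested in this way.

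Members with at least 200 UMIs, or called in a comparison, are given with values, except for results that are not reported here. Counts are over all members. The members, lists and tests were chosen with earlier results of these data known. Mice of a pool were not separable, so p-values measure the spread between libraries of pooled mice (after the block, where there is one). Depth was 23114756 to 50655384 UMIs per library, and limits from a count of 0 (3 UMIs) cover counting error only.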

Additional observations from a re-analysis of the deposited data

Results flagged for a closer look

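The difference between P56 and P42 in all cells differed between the segments for 20 of 51 members, by a test of the segment and age interaction (edgeR, adjusted p under 0.05), beside 14.3% of all 21252 genes. This fit has no block for the pool, so its p-values do not allow for the mice that the segments of a pool share. The adjusted p was 0.00498 for Ccl7, Ccl9 and Pf4, 0.00522 for Ccl6, 0.00595 for Ccl8, 0.00625 for Ccr2, 0.00643 for Cx3cl1, 0.00682 for Ccl24, 0.00882 for Ccl2, 0.00909 for Xcl1 and 0.00922 for Ccr1. It was 0.0157 for Cxcl10, 0.0187 for Ccl11, 0.0267 for Cxcr4, 0.0278 for Ccl27a, 0.0305 for Cxcl12, 0.0317 for Cxcl1, 0.032 for Ccl5, 0.0354 for Cx3cr1 and 0.0461 for Ackr3. For Ccl24 the log2 difference between P56 and P42 was 0.92 for the caput, -1.09 for the corpus and -5.14 for the cauda, and for Cx3cl1 it was -0.64, 0.36 and 2.499. Without the P42 cauda library, which leaves the contrast of corpus and caput, 0 of 51 members passed by edgeR, 16 had an unadjusted p under 0.05, and 0 of 20867 genes passed. The cauda has no other P42 library, so its age difference cannot be told apart from that library. Its gated shares of fibroblasts (29.2%, and 64.0% by clusters) and C1q+ phagocytes (10.6%) were the highest of the 9 libraries. Their part was not tested.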

How the results depend on the processing

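Segment calls in all cells numbered 15 and became 8 with no replicate block, 3 without P56 replicate 1, 6 without P56 replicate 2 and 27 without P42 replicate 1. The other alternatives gave 14 to 22, the highest with DESeq2 and without the P42 cauda library. The share of all genes called was not taken for the alternatives in this section. Within types, 72 segment calls became 116 with no filter on low counts, 47 with no replicate block and 41 without P56 replicate 1, and the others gave 60 to 85. Cell type calls numbered 65 with no replicate block (the library).

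Age calls in all cells (68 of 153 over 3 contrasts) became 30 of 51 in an additive model with 1 contrast and 29 of 102 without the P42 cauda library. Leaving out a P56 pool leaves 1 library against 1 in each segment, so the additive model was used there too: it called 0 of 51 without P56 replicate 1 (22 at an unadjusted p under 0.05) and 0 of 51 without P56 replicate 2 (30 at that p), to be read against the 30. Within types, 47 age calls became 20 with DESeq2, and in the additive model 21 and 31 without P56 replicates 1 and 2 and 11 without the P42 cauda library, against 46 with all libraries. The others gave 36 to 69.

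Cell type calls numbered 51 to 85 over all alternatives, against 66. Without P42 replicate 1, the direction reversed for Ccr7 in C1q+ phagocytes (-0.54 to 1.69 on the log2 scale over the pools left out) and Cxcl1 in fibroblasts (-0.12 to 1.76). Calls of Ackr3 (1.67) and Cx3cl1 (1.71) in endothelial cells, Ackr1 (2.89) and Cxcl10 (0.96) in fibroblasts and Ackr4 (0.69) in basal cells were also lost without P42 replicate 1. Without the P42 cauda library, log2 fold changes that no longer gave a call were 0.96 for Ackr4 in basal cells (1.02 with it), 1.46 for Ccr7 in C1q+ phagocytes (1.498), and 1.85, 2.68 and 1.92 for Cx3cr1, Cxcr3 and Cxcr4 in C1q- phagocytes (2.47, 2.54 and 2.17). The cause was not tested in any of these. Types with 10 to 100 cells in a library gave the least precise values.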
